A study of Macaca fuscata with 12 samples.

Results

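The cadherin superfamily was followed here through every probe set whose single gene symbol began with CDH, CDHR, PCDH or CELSR. This took 45 of the 14132 genes that the array's annotation names, read by 75 of the 52766 probe sets tested. They comprised 20 probe sets of 15 classical cadherins, 35 probe sets of 19 protocadherins and 20 probe sets of 11 other members. The other members were CDH13, CDH16, CDH17, CDH23, CDH26, 4 CDHR genes, CELSR3 and PCDH15. CDH2, CDH6, the gamma cluster of protocadherins, CELSR1 and CELSR2 were not analysed here.

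Cadherins are membrane proteins that bind their like on a neighbouring cell through calcium-dependent extracellular repeats. Classical cadherins carry a cytoplasmic tail that holds catenins and through them the actin cytoskeleton, and in the brain they help to build and sort synapses and layers. Clustered protocadherins are made from tandem variable exons, so that each neuron displays its own small set, which it uses for self-avoidance of its dendrites and axons. The delta protocadherins are single genes with restricted patterns in cortex, and CELSR proteins belong to the planar polarity pathway that guides axons.

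Expression was measured on 12 Affymetrix rhesus arrays with RNA from the left hemisphere of 8 Japanese macaques (Macaca fuscata), 4 of which gave both regions. The groups of 3 arrays each were control and tool-use trained animals for the area around the lateral sulcus, which includes the secondary somatosensory cortex (SII), and control and tool-use trained animals for the area around the intraparietal sulcus (IPS). Per the labels, the SII controls were a female of 4 years 6 months and males of 5 years 4 months and 5 years 10 months, and the SII trained animals were males of 5 years 7 months and 5 years 1 month and a female of 3 years 10 months. The IPS controls were males of 5 years 4 months, 5 years 10 months and 3 years 9 months, and the IPS trained animals were males of 5 years 7 months, 6 years and 5 years 1 month. The comparisons ask whether expression differs with tool-use training in each area. The samples are blocks of tissue around a sulcus, so fewer cells of a type and less RNA per cell cannot be told apart.

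Each value is a log2 number given relative to that probe set's own median over the 12 arrays. It shows where an array stands for a probe set and not how abundant the transcript is, so no gene is ranked against another. A rough signal class could still be recovered. Among the 75 member probe sets the signal was high for 5, middle for 36 and low for 24, and 10 carried a lowest value shared by many probe sets, called the floor, in at least 2 arrays. Such a value gives an upper limit and no more. The median SD within groups was 0.30 log2 units for the members of high signal, 0.37 for middle, 0.84 for low and 0.90 for those with a floor. Of the listed markers of cortical excitatory neurons, 5 of 6 genes were measured on 6 probe sets, of which 1 had a high and 5 a middle signal. The 2 probe sets of oligodendrocyte markers were both of high signal. 3 arrays stood apart by raised hybridisation controls, SII control 1 (0.48), SII trained 2 (0.54) and IPS trained 3 (0.44), against -0.13 to 0.08 in the rest. The first and second of these are the arrays of the female animals. The GAPDH controls, 3' end minus 5' end, stood at 1.01 in IPS trained 3 and 0.72 in SII trained 1. They ran from -0.57 to 0.33 in the rest. The part of this measure in the training differences was not tested.

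No cadherin or protocadherin passed the 5% false discovery rate in any of the 5 comparisons made with limma, and 0% of all probe sets did. The smallest adjusted p of a member was 0.713 for training in SII, 1 for training in IPS, 1 for the difference between these changes, 1 for their average and 0.471 for IPS against SII. In SII, 4 members had an unadjusted p under 0.05, against 3.87% of all probe sets. In IPS 1 member did, CDH19 on a probe set with a floor in 8 arrays, against 3.27%. For the difference between the regions' changes 3 members did, 1 higher (CDH1, with a floor in 3 arrays) and 2 lower, against 3.68%. For the average change 3 did, 2 higher and 1 lower, against 3.48%. The member median was a trained minus control difference of 0.07 in SII, where the median of all probe sets was 0.06, and 0.06 in IPS, where it was 0.01. Under quantile normalization the SII median of the members was -0.02 and that of all probe sets 0.00, so its direction depends on the scaling. Trained and control arrays did not overlap for 10 members in SII (7 higher and 3 lower in trained animals), against 7.08% of all probe sets, and for 6 in IPS (4 higher and 2 lower), against 9.49%. Over both regions together no member separated trained from control arrays, against 0.121% of all probe sets. The values below are therefore descriptions of probe sets that did not pass.

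**Figure D1:**
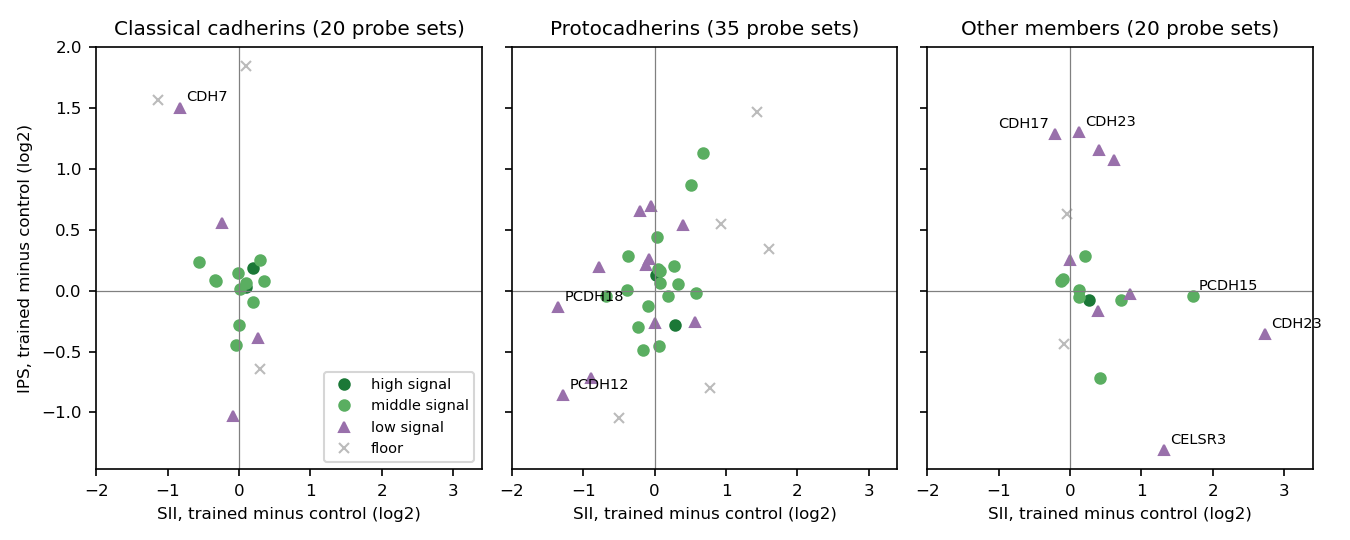
Trained minus control differences (log2) of all 75 member probe sets, with SII on the horizontal and IPS on the vertical axis, in 3 panels by class and with symbols by signal class. Most points lie near 0 in both regions, and the point farthest to the right is a CDH23 probe set at 2.73 in SII and -0.36 in IPS.

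The classical cadherins stood level between trained and control animals in SII, where 10 of 20 probe sets were higher and 10 lower, with a median of 0.00 (-0.04 under quantile normalization). In IPS 14 of 20 were higher, with a median of 0.08, but in the 4 animals with both regions only 7 of 20 were, with a median of -0.06. Among the type I genes, CDH4 (R-cadherin, of the developing retina and brain) had group means of 0.24 ± 0.42 in SII controls, 0.53 ± 0.65 in SII trained, -0.28 ± 0.14 in IPS controls and -0.03 ± 0.55 in IPS trained animals (SD, n = 3 each). CDH3 (P-cadherin) averaged -0.13 and 0.02 in SII control and trained arrays and 0.03 and -0.16 in the IPS groups. CDH15 (M-cadherin of muscle), of low signal, averaged -0.28, -0.51, -0.52 and 0.03 in the same order of groups. CDH1 (E-cadherin, the epithelial cadherin) lay at the floor in 3 arrays and gave no usable mean.

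The type II cadherins, which neurons of cortex use in subtype combinations, were represented by 11 genes. CDH10 of high signal had means of -0.06 in SII controls, 0.13 in SII trained, -0.06 in IPS controls and 0.13 in IPS trained animals, and CDH12 of high signal 0.08, 0.16, 0.00 and 0.03. Their SDs ran from 0.11 to 0.60, and these groups overlapped. CDH18 averaged -0.09, -0.10, 0.05 and 0.19 in the same order, CDH22 0.09, 0.28, 0.05 and -0.04, and CDH20 -0.40, -0.11, 0.22 and -0.17. CDH8 and CDH9, which mark separate groups of cortical and hippocampal neurons, averaged 0.35, 0.00, -0.30 and -0.22 and -0.06, -0.07, 0.17 and -0.10. CDH5 (VE-cadherin of endothelial junctions) averaged 0.09, -0.11, 0.37 and -0.12 over its 2 probe sets. CDH7 averaged 1.36, 0.51, -1.44 and 0.06 with SDs of up to 2.32. CDH19, a cadherin of the glial lineage, lay at the floor in 8 arrays on its first probe set and in 2 on its second, and is not compared.

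CDH11 (OB-cadherin, found in mesenchymal cells and in brain) was read by 3 probe sets that did not tell the same story. On MmugDNA.14976.1.S1_at the values were 0.27, 0.38 and 0.54 in SII controls and 0.10, -0.34 and -0.30 in SII trained animals. All trained arrays lay below all controls, a difference of -0.57 ± 0.34 (SE), with an unadjusted p of 0.123 and an adjusted p of 1. The other probe sets, MmuSTS.3607.1.S1_at and MmugDNA.5533.1.S1_at, differed by 0.01 and 0.10 in SII, and their values tracked each other with a median absolute difference of 0.11 over the 12 arrays. They stood 0.38 and 0.35 apart from the first. In IPS all 3 probe sets were higher in trained animals, by 0.02 to 0.23. The listed markers of meninges and fibroblasts, measured on 14 probe sets of 6 genes, were lower in SII trained animals on 12 of the 14, with array means of -0.47 to 0.75 in controls and -0.50 to -0.07 in trained animals. Their part in the CDH11 values was not tested.

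**Figure D2:**
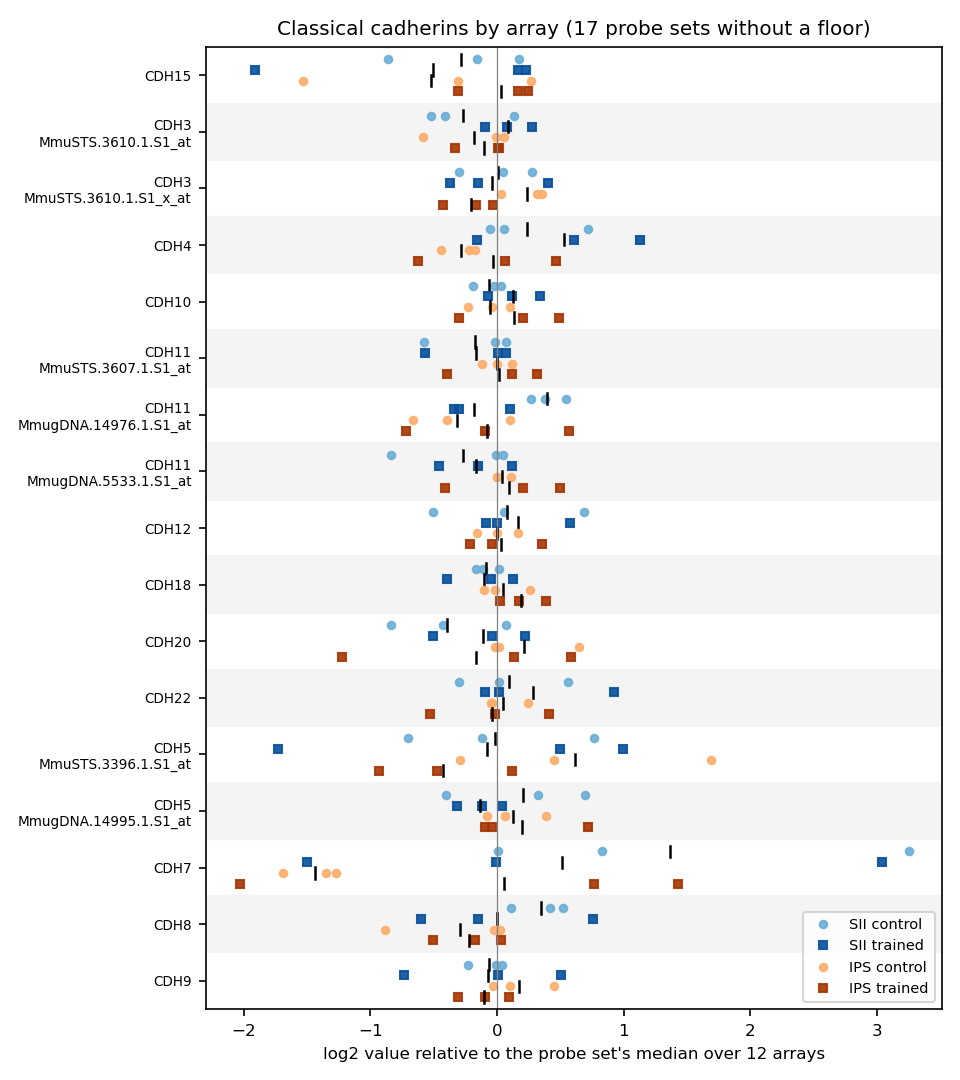
Values of the 17 classical cadherin probe sets without a floor, in log2 units relative to each probe set's median, with 3 arrays a group as points and the group mean as a bar. Trained and control arrays separate only for CDH11 on MmugDNA.14976.1.S1_at in SII and for CDH3 on MmuSTS.3610.1.S1_x_at in IPS, and CDH7 reaches 3.25 and 3.04 in 2 SII arrays.

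In IPS, the classical probe set with the smallest p among those lower in trained animals was CDH3 MmuSTS.3610.1.S1_x_at. Its values were 0.36, 0.31 and 0.03 in controls and -0.17, -0.43 and -0.03 in trained animals. The groups did not overlap, and the difference was -0.45 ± 0.26 with an unadjusted p of 0.121. This probe set is of a kind named for reading several transcripts, so the value may not be of CDH3 alone. The companion CDH3 probe set, named for the same transcript cluster, differed by 0.08, with trained and control arrays interleaved. CDH5 on its low-signal probe set differed by -1.03 ± 0.74 in IPS, and CDH7, CDH15, CDH9 and CDH10 by 1.50, 0.56, -0.28 and 0.19, each with overlapping groups. The CDH5 value was -0.50 without IPS control 3, that of CDH15 was 0.05 without IPS control 2 and that of CDH10 was 0.01 without IPS trained 1. In SII the values nearest to the threshold besides CDH11 were CDH3 (0.35), CDH10 (0.20) and CDH4 (0.29) on the higher side and CDH5 (-0.33) and CDH8 (-0.33) on the lower. The CDH4 value was -0.01 without SII trained 2, that of CDH8 was 0.00 without SII trained 3 and that of CDH5 was -0.09 without SII control 3.

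The protocadherins were split in SII, where 19 of 35 probe sets were higher in trained animals with a median of 0.03 (15 of 35 and -0.03 under quantile normalization). In IPS 20 of 35 were higher, with a median of 0.06. The alpha cluster was read by 14 probe sets of 4 genes. In SII 10 of 14 were higher (7 of 14 under quantile normalization), in IPS 11 of 14, and on the average of both changes 13 of 14, with a median of 0.19 against 0.03 for all probe sets. In the 4 animals with both regions 8 of 14 were higher on average, with a median of 0.05. The 14 probe sets are not 14 independent readings, since transcripts of this cluster share their 3' constant exons and 4 of the probe sets carry a floor. None of them had an unadjusted p under 0.05 for either region's training difference. The beta cluster, single-exon genes that lie beside it, had 3 of 9 probe sets higher in each region, with medians of -0.10 and -0.04.

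Within the alpha cluster, PCDHA5 was read by 6 probe sets. On MmuSTS.1093.1.S1_at the SII controls stood at -1.29, -0.07 and -0.31 and the trained animals at 0.06, 0.03 and -0.01. The groups did not overlap, but the difference of 0.58 ± 0.31 (unadjusted p 0.0903) rested mostly on SII control 1, the female control, and was 0.21 without it. The other PCDHA5 probe sets without a floor differed between -0.21 and 0.57 in SII. In IPS, the low-signal probe set whose name begins with MmuAffx differed by 0.69 ± 0.50 with overlapping groups.

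PCDHB4 of the beta cluster had 2 probe sets that shared a sign in all 5 comparisons with all 12 arrays included. On MmugDNA.21589.1.S1_at the IPS controls were at -0.97, 0.05 and -0.52 and the trained animals at -0.02, 0.92 and 0.25. On MmugDNA.11709.1.S1_at they were at -0.57, -0.08 and -0.47 against 0.56, 1.52 and 0.10, with no overlap. The differences in IPS were 0.87 ± 0.43 and 1.13 ± 0.91 (unadjusted p 0.0733 and 0.24), and in SII 0.50 and 0.68, where SII control 1 was far below the rest on the second probe set at -3.19. Without that array the second probe set differed by -0.56 in SII and the first by 0.19, so the shared sign in SII rested on it. Between areas the second probe set turned from 0.53 to -0.07 without it. PCDHB8 was lower in trained animals, with -0.89 ± 0.51 in SII and -0.72 ± 0.51 in IPS. These values were -0.36 without SII trained 3 and -0.29 without IPS trained 2. PCDHB16 differed by -0.68 ± 0.34 in SII and by -0.37 without SII trained 1. Beta genes resemble each other in sequence, and the probe sets of PCDHB8 and PCDHB16 are of the kinds named for reading several transcripts, so these values may be shared with paralogs.

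Of the delta protocadherins, PCDH8 (arcadlin, which neuronal activity induces and which acts at dendritic spines) was of high signal. It stood at -0.38, -0.22 and -0.22 in SII controls and at 0.17, -0.01 and -0.13 in SII trained animals, and at 0.27, 0.11 and 0.48 in IPS controls and -0.16, 0.16 and 0.01 in IPS trained animals. The SII trained arrays all lay above the controls, while in IPS the groups overlapped, with IPS trained 2 above IPS control 2. The differences were 0.28 ± 0.20 and -0.28 ± 0.20, and the IPS change minus the SII change was -0.57 ± 0.28, with an unadjusted p of 0.0719 and an adjusted p of 1. PCDH18, on low-signal MmuSTS.2009.1.S1_at, stood at 0.23, 1.04 and 0.04 in SII controls and at -0.26, -2.31 and -0.20 in trained animals. The groups did not overlap, and the difference of -1.35 ± 0.54 (unadjusted p 0.0295, adjusted p 1) was -0.66 without SII trained 2, the female. The second PCDH18 probe set, of middle signal, differed by 0.06 in SII.

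PCDH7 was the protocadherin of smallest p among those higher on the average of both training changes. On MmugDNA.841.1.S1_at the SII controls were at -0.22, -0.11 and -0.53 and the trained animals at 0.39, 0.07 and -0.07. In IPS the controls were at -0.13, -0.27 and 0.58 and the trained animals at 0.82, 0.24 and 0.73. Trained arrays lay above all controls in SII, and above all but IPS control 3 in IPS. The average change was 0.47 ± 0.21 with an unadjusted p of 0.0452 and an adjusted p of 1, and the other PCDH7 probe set, with a floor in 3 arrays, gave -0.78. PCDH12 (an endothelial protocadherin), of low signal, had an average change of -1.07 ± 0.46 (unadjusted p 0.0433). It stood at 0.56, -0.85 and 0.63 in SII controls and at -1.23, -2.28 and -0.04 in SII trained animals, and the average was -0.37 without the 3 arrays of raised controls. The listed endothelial and pericyte markers had a mean of -0.04 in SII controls, -0.16 in SII trained, -0.56 in IPS controls and -0.19 in IPS trained animals, and their part in the PCDH12 values was not tested. PCDH10, PCDH11X and PCDH20 had training differences of -0.49 to 0.32 over both regions.

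Among the other members, 15 of 20 probe sets were higher in trained than in control animals in SII, with a median of 0.24 against 0.06 for all probe sets (12 of 20 and 0.20 under quantile normalization). Among male animals only, 11 of 20 were higher, with a median of 0.12. In IPS 10 of 20 were higher, with a median of -0.01. All 3 members with an unadjusted p under 0.05 on the higher side in SII belonged to this class, CDH23, PCDH15 and CELSR3, against 2.53% of all probe sets on that side.

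CDH23 and PCDH15 form the tip link of hair cells in the inner ear, a thread between neighbouring stereocilia. CDH23 on low-signal MmugDNA.12190.1.S1_at stood at 0.00, -1.99 and -0.95 in SII controls and at 2.43, 1.79 and 1.03 in SII trained animals. All trained arrays lay above all controls, a difference of 2.73 ± 0.57 with an unadjusted p of 0.00069 and an adjusted p of 0.713, and between 2.23 and 3.23 with any array left out. In IPS the controls stood at 1.02, -0.64 and 0.18 and the trained animals at -0.41, 0.00 and -0.06. The trained arrays lay within the range of the controls there, with a difference of -0.36 ± 0.57 that was 0.07 without IPS control 1, and the IPS change minus the SII change was -3.09 ± 0.79 (unadjusted p 0.00287, adjusted p 1).

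The remaining CDH23 probe sets did not repeat the size of this difference. MmugDNA.30572.1.S1_at, of middle signal, differed by 0.21 ± 0.26 in SII and 0.29 ± 0.26 in IPS. MmugDNA.19234.1.S1_at, of low signal, differed by 0.13 ± 0.78 in SII and by 1.30 ± 0.78 in IPS, where all trained arrays (-0.03, 1.64 and 0.86) lay above all controls (-0.92, -0.13 and -0.35). The fourth had a floor in 5 arrays. SII control 2 stood at -1.99 on MmugDNA.12190.1.S1_at and at 2.21 on MmugDNA.19234.1.S1_at, 4.19 log2 units apart.

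PCDH15 stood at 0.20, -2.30 and -1.31 in SII controls and at 0.91, 1.62 and -0.76 in SII trained animals. The groups overlapped, and the difference was 1.72 ± 0.70 (unadjusted p 0.033, adjusted p 1). It was 1.14 without SII control 2. In IPS it was -0.05 ± 0.70. CELSR3, which is needed for the growth of forebrain axon tracts, was read by 3 probe sets. On MmugDNA.13585.1.S1_at the SII controls were at -0.30, -0.56 and -0.53 and the trained animals at 0.31, 0.45 and 0.02, with no overlap and a difference of 0.71 ± 0.30 (unadjusted p 0.0363, adjusted p 1). In IPS the difference was -0.08 ± 0.30. The low-signal MmugDNA.31376.1.S1_at differed by 1.31 in SII, or 0.50 without SII trained 2, the female, and by -1.31 in IPS. MmugDNA.32377.1.S1_at differed by -0.10, or 0.42 without SII control 1, and by 0.10. The listed markers of choroid plexus and ependyma, 4 probe sets of 3 genes, were all higher in SII trained animals, with array means of -0.91 to 0.43 in controls and 0.20 to 0.78 in trained animals, and their part in the values of this class was not tested.

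**Figure D3:**
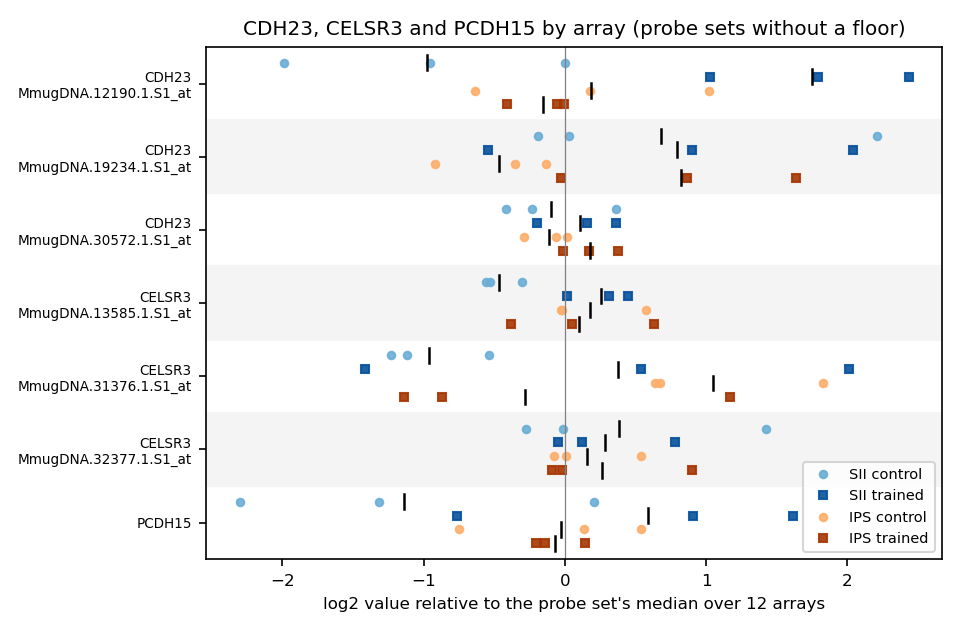
Values by array for the probe sets of CDH23, CELSR3 and PCDH15 without a floor, in log2 units relative to each probe set's median, with the group mean as a bar. CDH23 on MmugDNA.12190.1.S1_at separates trained from control arrays in SII and not in IPS, and the other CDH23 probe sets do not repeat it.

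CDH17 (an intestinal cadherin), of low signal, stood at -0.16, -1.68 and -0.14 in IPS controls and at 1.34, 0.14 and 0.36 in IPS trained animals. The groups did not overlap, with a difference of 1.29 ± 0.68 (unadjusted p 0.0877) that was 0.76 without IPS control 2. CDHR1, a photoreceptor cadherin, differed by 0.61 ± 0.59 in SII and 1.07 ± 0.59 in IPS, with no overlap in SII, and the IPS value was 0.43 without IPS control 1. CDH26 differed by -0.72 ± 0.65 in IPS on its middle-signal probe set and by 1.15 on the other, which was 0.39 without IPS control 3. CDH13 (T-cadherin, which is held by a lipid anchor and has no cytoplasmic tail) differed by 0.13 and 0.26 in SII and by -0.05 and -0.07 in IPS on its probe sets. CDHR2, CDHR3, CDHR5 and CDH16 had differences of -0.17 to 0.83 over both regions, each with overlapping groups.

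Several probe sets were available without a floor for 15 member genes. In SII all probe sets of a gene shared a sign for 5 of the 15, CDH13, CDH23, CDH26 and PCDHB4 on the higher side and CDH5 on the lower. Without SII control 1 the PCDHB4 probe sets no longer shared a sign, and both of CDH26 were lower, at -0.23 and -0.35. In IPS 7 of 15 did, CDH11, PCDH10, PCDHAC1, PCDHAC2 and PCDHB4 on the higher side and CDH13 and PCDH18 on the lower. Of the 10 members with 2 such probe sets, 4 shared a sign in SII and 6 in IPS. Among all genes with 2 such probe sets, 51.7% of 3288 did in SII and 53.6% in IPS. The members' agreement was thus near that of the array.

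Between the areas, 7 members had an unadjusted p under 0.05, 2 higher and 5 lower in IPS, against 9.26% of all probe sets. Both female arrays are SII arrays and no IPS array is from a female. The 2 with higher values were PCDHA11 and CDH19, the latter on the probe set with a floor in 8 arrays. No member separated all IPS arrays from all SII arrays, and 0.984% of all probe sets did. Within the 4 animals that gave both areas, 11 members had the same sign in all of them, 4 higher and 7 lower in IPS (14.7%), against 16.1% of all probe sets. The members' shares by these rules were thus near those of the array.

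PCDHA11 on high-signal MmugDNA.37873.1.S1_at was higher in IPS by 0.62 ± 0.24 (unadjusted p 0.0292, adjusted p 0.505). Its SII arrays stood at 0.45, -0.70, -0.51, -0.50, -0.01 and -0.21 and its IPS arrays at 0.01, 0.48, 0.42, -0.10, 0.82 and 0.60. Only SII control 1 and SII trained 2 reached into the IPS range. Within animals IPS exceeded SII by 0.70 and 0.99 in the controls and by 0.40 and 0.81 in the trained animals. The other PCDHA11 probe sets, each with a floor in 4 arrays, gave -0.35 and -0.17. PCDHA5, also of the alpha cluster, was lower in IPS on the low-signal probe set whose name begins with MmuAffx, with a difference of -1.07 ± 0.35 (unadjusted p 0.0115, adjusted p 0.471). Within animals it was -1.78 and -1.97 in the controls and -1.17 and -0.70 in the trained animals. Its other probe sets without a floor differed by -0.44 to 0.36.

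PCDH11X, a delta protocadherin encoded on the X chromosome, was lower in IPS on 2 of its 3 probe sets. MmugDNA.3972.1.S1_at stood at 0.67, 0.36, 0.96, -0.15, 0.84 and 0.15 in SII and at -0.42, -0.28, -0.30, -0.43, 0.42 and -0.16 in IPS. The difference was -0.67 ± 0.22 (unadjusted p 0.0119, adjusted p 0.471), and within the 4 animals it was -1.23 to -0.28. MmugDNA.24997.1.S1_at differed by -0.55 ± 0.21 (unadjusted p 0.027), again lower in all 4 animals. The third gave 0.00. PCDHB16 differed by -0.64 ± 0.23 and CDHR5, of the intestinal brush border, by -1.18 ± 0.42, with unadjusted p of 0.0213 and 0.0179. Neither had the same sign in all 4 animals. CDH4 (-0.54), CDH8 (-0.42) and CDH7 (-1.60) were the classical cadherins with the smallest p on the lower side, and CDH18 (0.22), CDH11 (0.28) and CDH20 (0.29) on the higher. Among male animals only, the difference was -0.27 for CDH4, -0.22 for CDH8, -0.53 for CDH7 and 0.07 for this CDH11 probe set, MmugDNA.5533.1.S1_at. It was 0.84 for the PCDHA11 and -0.53 for the first PCDH11X probe set described above. PCDH7 (0.40), PCDH8 (0.27), CDHR1 (-0.87) and CDH13 (-0.21) had values of this size as well. The 6 probe sets of striatum and claustrum markers had a median IPS minus SII difference of -0.45 and 5 of them were lower, but 5 of the 6 read 1 gene, NR4A2. The microglia markers were lower in IPS on 7 of 7 probe sets, with a median of -0.39 and group means of 0.12 in SII controls, 0.29 in SII trained, -0.34 in IPS controls and -0.21 in IPS trained animals. The oligodendrocyte markers had a median of -0.52, with both probe sets lower, but both read 1 gene, MBP. The endothelial and pericyte markers had a median of -0.48, with 5 of 9 probe sets lower and 4 higher. Those of GABA neurons had 0.11, with 5 of 7 higher. The part of these lists in the values above was not tested.

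**Figure D4:**
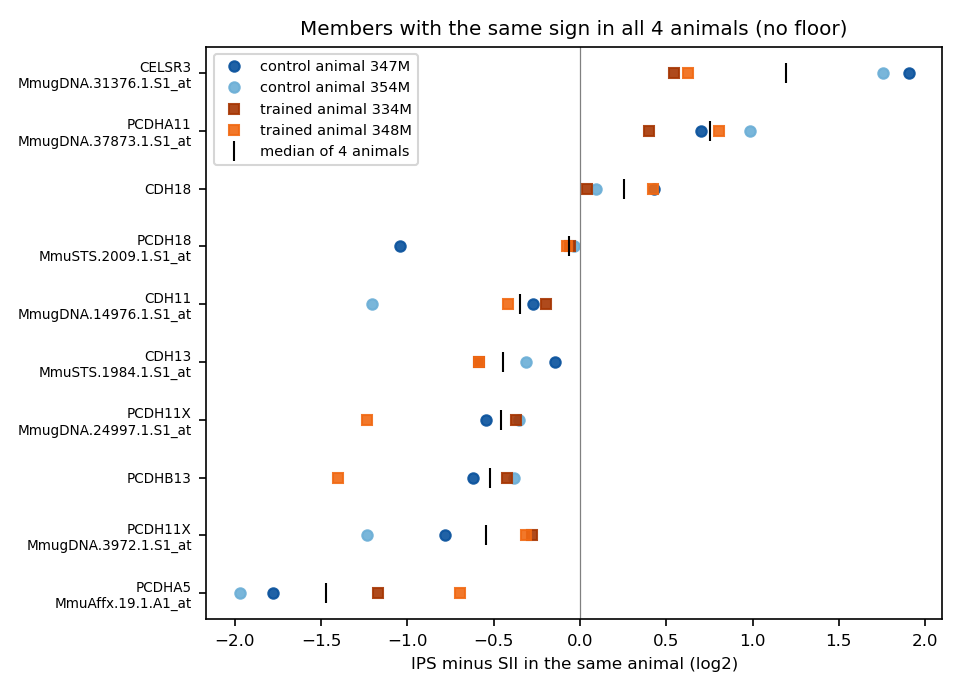
IPS minus SII differences (log2) within each of the 4 animals that gave both areas, for the 10 members without a floor that had the same sign in all 4, with the median as a tick. PCDHA11 is higher in IPS by 0.40 to 0.99 and PCDH11X lies at -1.24 to -0.28 on 2 probe sets.

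Several members stood apart together in the arrays of the 2 female animals, SII control 1 and SII trained 2. In a fit with sex added, 19 of 75 members had an unadjusted p under 0.05 for female against male (25.3%), 10 higher and 9 lower, against 17.7% of all probe sets. None passed the false discovery rate, which 0.347% of all probe sets did, and the smallest adjusted p was 0.085. Both female arrays lay outside the range of the 10 male arrays for 15 of 75 members (20.0%), 8 above and 7 below, against 16.7%. By this rule the members' share was near that of the array. By class it was 7 of 20 for the classical cadherins, 6 of 35 for the protocadherins and 2 of 20 for the others.

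CDH7, a type II cadherin, stood at 3.25 and 3.04 in the female arrays and between -2.03 and 1.43 in the male arrays. The female minus male difference was 3.30 ± 0.85 with an unadjusted p of 0.00384 and an adjusted p of 0.119. CDH12 (0.69 and 0.58, males up to 0.36), CDH22 (0.56 and 0.93, males up to 0.41) and CDH4 (0.72 and 1.13, males up to 0.61) were also above all male arrays. PCDHA5 on a further low-signal probe set, at 1.73 and 2.15 with males up to 1.26, had the smallest adjusted p. The other PCDHA5 probe sets without a floor had female minus male differences of -0.57 to 1.54.

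CDH11 on its matching pair of probe sets was below all males, at -0.58 and -0.57 on MmuSTS.3607.1.S1_at and at -0.84 and -0.46 on MmugDNA.5533.1.S1_at. PCDH20 (-1.34 and -0.70, males from -0.29), PCDH10 on MmugDNA.23173.1.S1_at (-1.21 and -0.65, males from -0.37) and CDH13 on MmunewRS.730.1.S1_at (-0.50 and -0.57, males from -0.32) were low in the same arrays. The remaining probe sets of PCDH10, CDH13 and CDH11 lay within the male range there. Their female values were 0.09 and 0.33, -0.02 and -0.07, and 0.27 and -0.34 in that order. For PCDH20, PCDH10 on MmugDNA.23173.1.S1_at and the matching CDH11 pair, the lowest male array was IPS trained 3. For low-signal PCDHB1, where both female arrays lay above all males (1.06 and 0.92), the highest male array was IPS trained 3 at 0.42. That array has raised hybridisation controls like the female arrays. It was neither the lowest nor the highest male array for CDH12 (-0.04), CDH22 (-0.01), CDH4 (0.06) and CDH13 on MmunewRS.730.1.S1_at (0.03). On PCDH11X MmugDNA.24997.1.S1_at, where both female arrays lay above all males, it was the lowest male array at -1.35. Sex, younger age and the raised controls cannot be told apart in SII, where all fall on the same arrays. The female animals were the youngest of the SII animals. Each SII group holds 1 female array, so the training differences in SII set a female and 2 males against a female and 2 males.

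**Figure D5:**
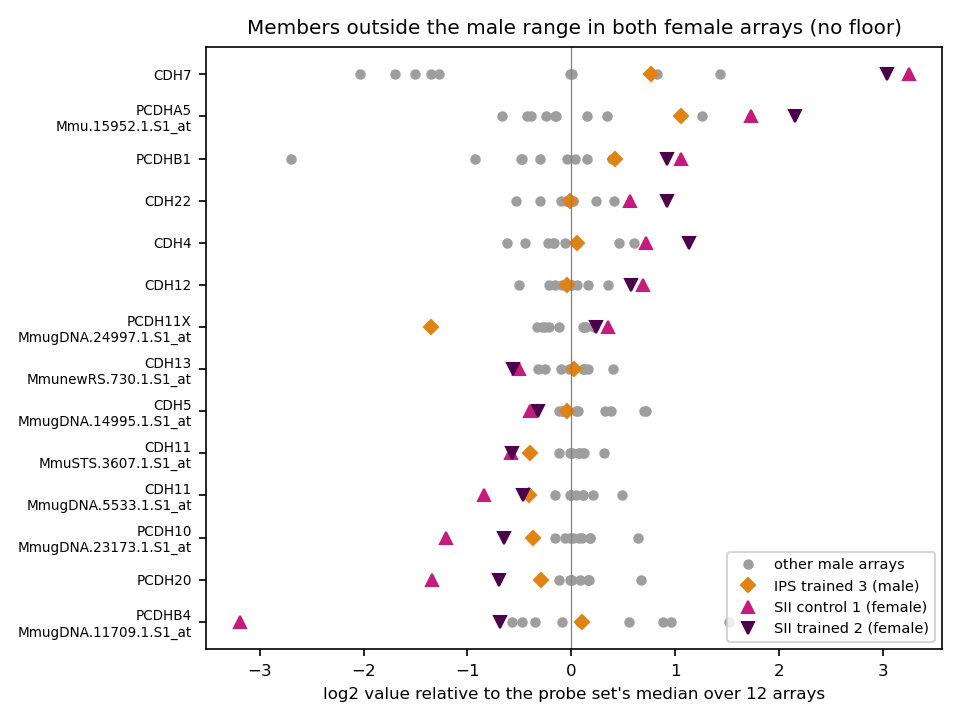
Values by array (log2 relative to each probe set's median) of the 14 members without a floor for which both female arrays lie outside the range of the 10 male arrays. CDH7 lies at 3.25 and 3.04 in the female arrays. IPS trained 3, a male array with raised hybridisation controls, is the male value nearest to the female arrays for PCDH20, PCDH10, CDH11 and PCDHB1. It is neither the lowest nor the highest male value for CDH12, CDH22 and CDH4.

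The proteins that cadherins work with were read through a list of catenins, afadin, nectins, desmosomal cadherins, giant FAT and DCHS cadherins and calsyntenins. Of its 29 genes 24 were measured, on 51 probe sets, and none passed in any comparison. In SII 32 of 51 were higher in trained animals, with a median of 0.07, and in IPS 26 of 51, with a median of 0.00. The smallest p in SII belonged to JUP (plakoglobin, a catenin of desmosomes), at -1.72 ± 0.49, and AFDN (afadin, which links nectins to actin), at 1.80 ± 0.56, both on probe sets with a floor, where a value is only a limit. Another JUP probe set, MmugDNA.40648.1.S1_at, of middle signal and without a floor, differed by 0.66 ± 0.35, and the other AFDN probe sets by -1.26 to 0.63. In IPS they belonged to DSG3 (a desmosomal cadherin, with a floor), at 2.06 ± 0.57, and NECTIN2, at 0.69 ± 0.25, against 0.02 on its other probe set. Between areas, NECTIN1, a nectin of synaptic junctions, differed by -0.76 ± 0.20 (unadjusted p 0.00321, adjusted p 0.421) on a middle-signal probe set. The other NECTIN1 probe set, of low signal, differed by 0.02 ± 0.50.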

How the data were processed

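The labels gave each array's group, number, animal, sex and age. The authors deposited log2 numbers per probe set, centred so that each probe set's median over the 12 arrays is 0. MAS5 is named per the submitters' processing notes. Not given in the sources used here are its version, the scaling between arrays and the log base, which was inferred from the values. RNA was biotin-labelled with a 3' kit per the labels' protocols. Centring leaves no level or detection call. Signal classes came from the spacing of the stored single-precision numbers (high at least 256 and middle at least 16 in 11 of 12 arrays), and the floor from differences shared by many probe sets. Of 52865 probe sets 99 controls were left out. By the array's annotation, 24956 probe sets have 1 symbol, 361 several and 27449 none, and 3 probe sets with several symbols that include a cadherin were not used.

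The model (limma 3.58.1 and statmod 1.5.0 under R 4.3.3) held 4 group means per probe set, an animal correlation of 0.0474 and empirical Bayes moderation (8 residual and 2.22 prior degrees of freedom), with Benjamini-Hochberg adjustment over all 52766 probe sets. All tests were 2-sided. The script was tested on simulated data. Errors written with ± are standard errors for differences and SDs for group means. An exact permutation test of 3 against 3 arrays cannot go below 0.10. The p-values measure the spread of these few arrays within groups, which holds differences of animal, tissue block and array together. The members, lists and tests were chosen with earlier results of these data known. Per comparison and class, up to 3 higher and 3 lower probe sets without a floor were named by ascending p, with every classical gene, genes whose probe sets agreed in sign, and the partner genes of smallest p. Alternatives covered scaling, array weights, sex, the animal correlation, a replicate block, regions alone, males only, the 3 arrays of raised controls left out, the floor, signal filters, gene averages, unmoderated fits and each array left out. The fit for sex and that on the 4 animals with both regions were added after seeing the data.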

Additional observations from a re-analysis of the deposited data

How the results depend on the processing

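No member passed the 5% false discovery rate under any alternative run, which were 27 each for training in SII and in IPS, 25 each for the comparison of both changes, the average change and the areas, and 1 for sex. With any single array left out the count was 0 to 0 in each comparison. The smallest adjusted p of a member lay between 0.365 and 1 in SII, 0.579 and 1 in IPS, and 0.201 and 0.716 between areas. With the replicate number as a block it was 0.567 in SII, 1 in IPS and 0.684 between areas, and the block changed no call. By the animal labels the numbers pair the regions only in part. SII trained 1 and IPS trained 1 share an animal, as do SII trained 3 and IPS trained 3. The control animals with both regions carry different numbers in each. Deviations of same-numbered arrays had correlations of -0.199 to 0.061 over 18 pairs. Those of arrays from the same animal were -0.091 to 0.056 over 4 pairs, so these correlations cannot show whether arrays are paired. Of the 90 values named by the rule, 81 kept their sign under all alternatives run and 9 did not (30 of 2191 alternative values). Leaving out 1 array changed the sign of 7 and moved 60 of the 90 by over 1.5 times. The median of the members in SII ran from -0.02 to 0.18. Precision is limited by 3 arrays a group, signals of unknown level and the floor. A difference that did not pass is not shown to be absent.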
